A study of Mus musculus with 18 samples.

Results

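The 7 genes described here encode the calcium pumps of the sarcoplasmic reticulum (Atp2a1 and Atp2a2, for SERCA1 and SERCA2), the micropeptides that bind those pumps (Mrln, Sln and Pln) and the calcium-binding proteins of the store (Casq1 and Casq2). They were found by mapping the 43430 gene identifiers of the count table to symbols, and they were selected from earlier results of these same libraries, so their treatment values are given as a description and support nothing by themselves. The libraries hold polyadenylated RNA from myofibers of the quadriceps of 18 young adult C57BL/6 mice (C57BL/6J in the methods of the study), 1 library per mouse, in 6 groups of 3. Males and females received vehicle (DMSO in phosphate-buffered saline) by injection, prednisone once a week with vehicle on the other days (weekly prednisone), or prednisone every day (daily prednisone), for about a month. Prednisone is a synthetic glucocorticoid, and the labels give no genetic change in any group. Myofibers were the fraction of collagenase-digested muscle that a strainer held back, so fat, vessels and other cells can come along with the fibers.

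Each contraction releases calcium from the sarcoplasmic reticulum, and relaxation follows as SERCA pumps return it to the store at the cost of ATP. SERCA1 is the pump of fast fibers and SERCA2 that of slow fibers, the heart and smooth muscle. Myoregulin (Mrln), sarcolipin (Sln) and phospholamban (Pln) are short membrane peptides that lower pump activity. Calsequestrin 1 holds calcium in the store of skeletal fibers, and calsequestrin 2 does so in the heart and in slow fibers.

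Mrln was the member that differed most plainly with prednisone. It averaged 75.9 counts per 1000000 counts of the scaled library (CPM) in vehicle males and 28.4 with daily prednisone, and 77.1 and 28.7 in females. Casq1 fell with daily prednisone in males, to 0.66 of the vehicle level. This call stood close to the threshold (adjusted p = 0.0492, edgeR), and none of 6 fits without a library kept it. Casq1 was not called in daily females. With weekly prednisone edgeR called 0 members, as it called 0% of all genes. DESeq2 called Mrln and Atp2a2 in females and these with Casq1 over both sexes, with 149 and 180 of all genes called. The weekly values of Mrln and Casq1 lay below those of vehicle in every library of both sexes, as did 0.552% of all genes. Atp2a2 lay above vehicle in all 6 weekly libraries, as did 1.14% of all genes, and its highest value came from a female library that also carried the most slow-fiber RNA.

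The open reading frames of the micropeptides are printed to show how little coding sequence each has. Mrln has 141 coding bases, Sln 96 and Pln 159, stop codon included, against 2985 in Atp2a1, and the 5′ to 3′ sequences from the GENCODE M21 transcripts (mm10) are given with the start and stop codons in capitals.
Mrln: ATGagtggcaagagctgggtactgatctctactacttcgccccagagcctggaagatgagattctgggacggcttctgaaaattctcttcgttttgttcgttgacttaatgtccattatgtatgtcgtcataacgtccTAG
Sln: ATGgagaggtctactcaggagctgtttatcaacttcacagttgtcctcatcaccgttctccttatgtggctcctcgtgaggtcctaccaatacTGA
Pln: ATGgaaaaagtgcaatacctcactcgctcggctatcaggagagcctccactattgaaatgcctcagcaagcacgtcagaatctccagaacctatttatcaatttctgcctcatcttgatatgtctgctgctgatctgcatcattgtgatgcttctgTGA
Mrln lies on chromosome 10 from 70204664 to 70219711 (plus strand), Pln on chromosome 10 from 53337686 to 53345999 (plus strand) and Sln on chromosome 9 from 53850251 to 53853844 (plus strand), as the table gives them (mm10). Of the 5 annotated Mrln transcripts, 1 has a complete coding frame and is 443 bases long, whereas the table counts reads over 1926 exonic bases, so a level per kilobase understates Mrln if the coding transcript supplies most reads. The Sln model of the table ends at 53853844 and the M21 annotation at 53854560, and reads beyond the former were not counted.

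The promoters of Mrln and Casq1, the members that passed the test against vehicle, are printed over the 250 bases before the start (RefSeq, GRCm38.p6), with matches to the E-box CANNTG in capitals. The E-box is the site of the myogenic factors, and the glucocorticoid receptor motif ACANNNTGT was searched beside it. Both motifs read the same on either strand as patterns, and no match of one overlapped the other.
Mrln, chr10:70204414-70204663, plus strand: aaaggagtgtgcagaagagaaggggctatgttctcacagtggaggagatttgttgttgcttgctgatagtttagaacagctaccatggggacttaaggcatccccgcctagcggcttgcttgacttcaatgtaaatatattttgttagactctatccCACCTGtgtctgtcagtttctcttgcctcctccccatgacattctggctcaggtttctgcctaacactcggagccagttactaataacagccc
Casq1, chr1:172219896-172220145, minus strand: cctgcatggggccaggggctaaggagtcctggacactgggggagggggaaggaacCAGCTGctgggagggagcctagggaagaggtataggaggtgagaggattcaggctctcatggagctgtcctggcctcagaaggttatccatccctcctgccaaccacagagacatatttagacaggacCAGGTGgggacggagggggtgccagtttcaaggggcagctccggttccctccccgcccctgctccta
The Mrln window has an E-box beginning 93 bases before the start and no ACANNNTGT. Casq1 has E-boxes beginning 195 and 67 bases before the start and no ACANNNTGT. RefSeq promoters matched 5 of the 7 members, Atp2a2 and Sln being the others, and of the 5 only Pln held an ACANNNTGT, 139 bases before its start. Among 32851 promoters (250 bases before the start and 50 after), 6.85% held ACANNNTGT and 72.3% held CANNTG. An absent match says only that these letters are not in the window.

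Total counts ran from 10506661 to 14686654 per library, and all 7 members were among the 13596 genes that passed the filter on low counts. Mitochondrially encoded genes took between 11.7% and 36.4% of the counts. The preparations carried the markers of fast muscle at high level, with 10 fast-fiber genes summing to between 92192 and 175176 CPM, whereas 10 slow-fiber genes summed to between 48.5 and 243 CPM in the 6 vehicle libraries. Of 10 heart genes, Myl7 was at 0 in all 18 libraries, and Mybpc3, Nppa, Nppb, Tnni3 and Ryr2 stayed at or below 1.38 CPM. Myl4 lay between 2.22 and 6.68 CPM, Myh6 and Tnnt2 reached 12.5 and 4.57 CPM, and Actc1, the cardiac actin that skeletal fibers also express, ran from 196 to 1903 CPM. Female weekly replicate 1 and male weekly replicate 3 stood apart, with slow-fiber sums of 2225 and 628 CPM and with Myh7, the slow myosin heavy chain, at 668 and 94.5 CPM against at most 20.9 CPM in the other libraries. The labels name no extraction or sequencing batch.

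The members differed widely in level, and these were compared per kilobase of the exon length in the table (CPM per kilobase, 6 vehicle libraries). Atp2a1 stood highest at 5873 ± 917 (SD, n = 6) and Casq1 followed at 1306 ± 255. Mrln came next at 39.7 ± 10.95, then Atp2a2 at 5.07 ± 0.75 and Casq2 at 2.19 ± 0.61. Each of these neighbors was separate from the next in every vehicle library. Sln (0.774 ± 0.403) and Pln (0.675 ± 0.262) were lowest, and their ranges overlapped, so no order is given between them. Within the pumps Atp2a2 made up between 0.053% and 0.131% of the summed level per kilobase in vehicle, and Casq2 between 0.0823% and 0.273% of the calsequestrins. Mrln made up between 93.4% and 98.5% of the 3 micropeptides. These levels and shares rest on the exon lengths of the table, which ran from 0.391 (Sln) to 4.35 (Mrln) times the coding transcript.

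**Figure D1:**
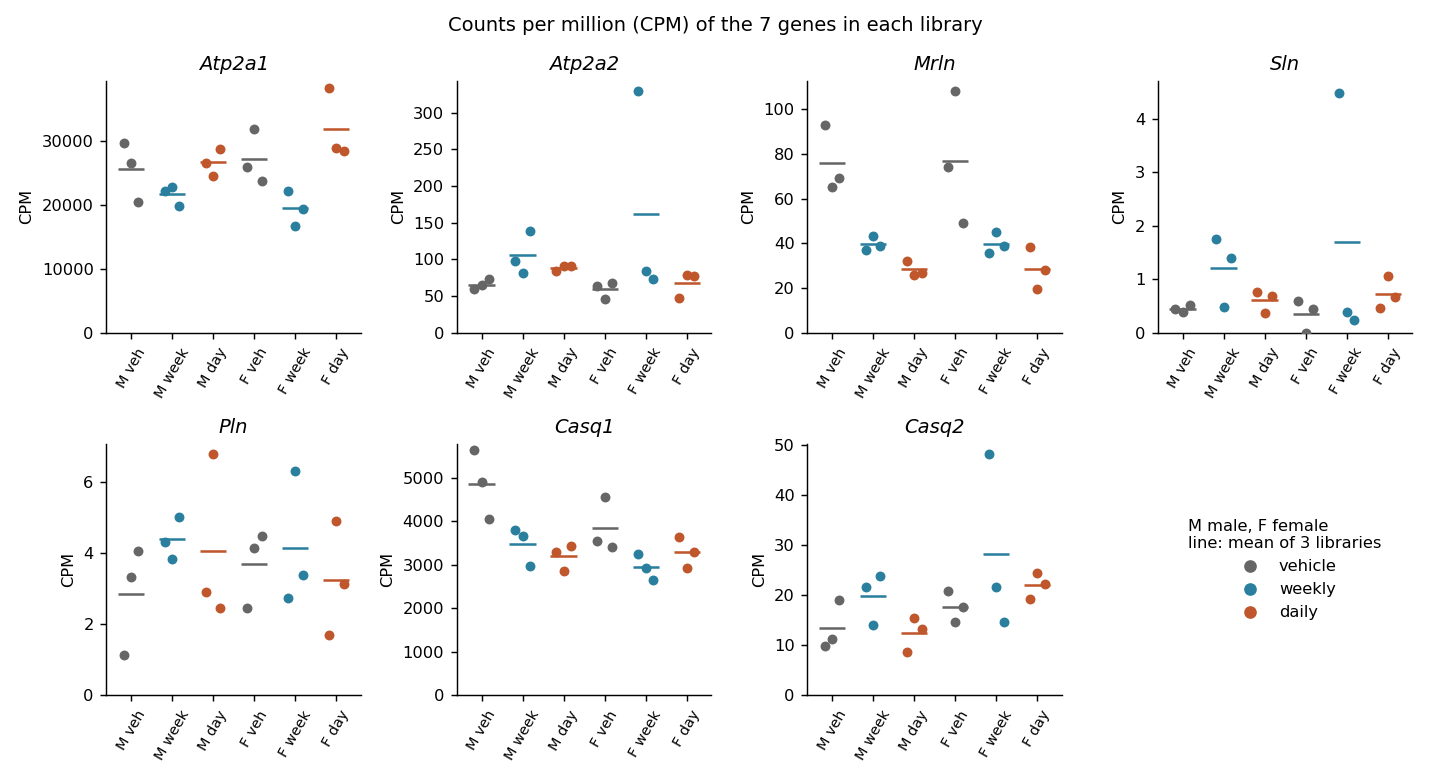
CPM (y axis, linear from 0) of each member in the 18 libraries by sex and treatment, with 1 point per library and a line at the mean of 3 libraries. Mrln lies between 49.0 and 108 CPM in the vehicle libraries and between 19.4 and 45.2 CPM in the treated ones, and female weekly replicate 1 is the high point of Atp2a2 (329 CPM), Sln (4.49 CPM) and Casq2 (48.3 CPM).

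Calls were read from a fit across all 13596 genes at an adjusted p under 0.05 (edgeR's quasi-likelihood test with Benjamini-Hochberg adjustment), and are given beside the share of all tested genes called in the same comparison. Daily prednisone against vehicle called 2 of the 7 members in males (Mrln and Casq1), with 6.47% of all genes called, and 1 in females (Mrln), with 0.382% called. Over the mean of both sexes it called Mrln and Casq1, with 15% called. Weekly prednisone called 0 members in males, in females and over both sexes, as it called 0% of all genes in each. At an unadjusted p under 0.05 the weekly comparisons had 2 members in males, 5 in females and 6 over both sexes, where all genes gave 776, 1083 and 1492 of 13596. DESeq2 called 0 members in males, Mrln and Atp2a2 in females and these with Casq1 over both sexes. It called 0, 149 and 180 of all genes. With limma-voom 0 members were called in each, as were 0 of all genes.

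A count without a test took the members whose 3 treated libraries all lay on the same side of the 3 vehicle libraries. Daily prednisone separated 3 members in males, with 33.4% of all genes separated, and 1 in females, with 23.1%. Weekly prednisone separated 3 members in males, with 16.7%, and 4 in females, with 8.07%. Mrln was lower than vehicle without overlap in both sexes with daily prednisone, as were 4.8% of all genes. With weekly prednisone Mrln and Casq1 were lower in both sexes, as were 0.552% of all genes, and Atp2a2 was higher in both sexes, as were 1.14%. The daily and weekly comparisons share their vehicle libraries and are given side by side for that reason.

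**Figure D2:**
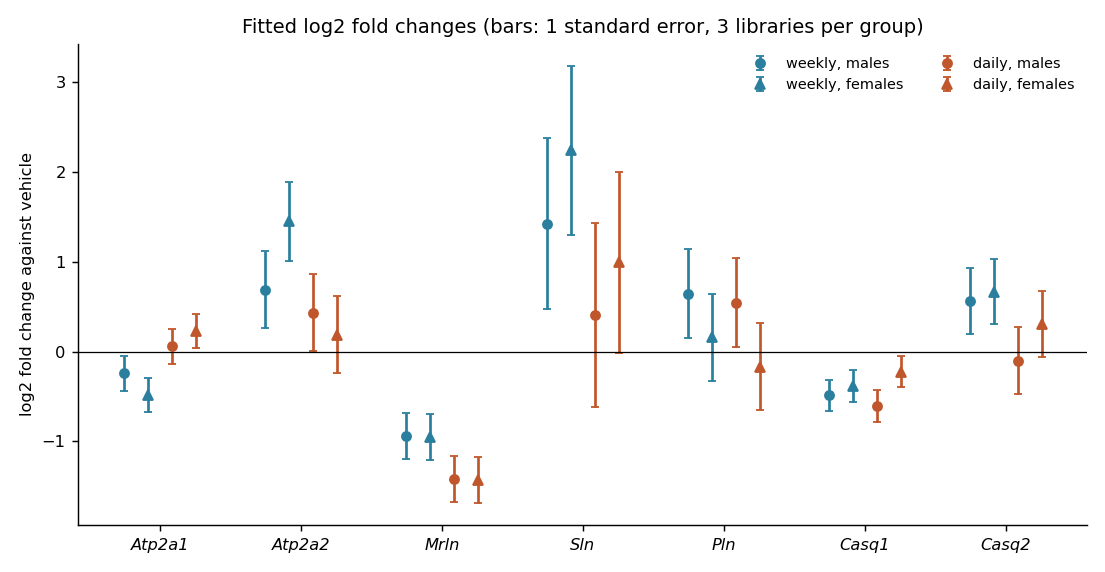
Fitted log2 fold change against vehicle (y axis) for each member (x axis), with bars of 1 standard error, in males (circles) and females (triangles) and with weekly (blue) and daily (orange) prednisone. Mrln lies at -1.42 and -1.43 with daily and -0.94 and -0.95 with weekly prednisone, whereas the bars of Sln are the widest.

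Among the pumps, Atp2a1 (ENSMUSG00000030730; chromosome 7, 126445858 to 126463108, minus strand) had 29656, 26601 and 20363 CPM in vehicle males and 25827, 31891 and 23727 CPM in vehicle females. Weekly prednisone gave 22140, 22805 and 19884 CPM in males and 22161, 16723 and 19379 CPM in females. Daily prednisone gave 26598, 24548 and 28707 CPM in males and 38260, 28909 and 28452 CPM in females. In each sex every daily library stood above every weekly library, and the 3 weekly females stood below the 3 vehicle females. Against vehicle the log2 fold change was -0.24 ± 0.19 (SE) in males and -0.48 ± 0.19 in females with weekly prednisone, and 0.06 ± 0.19 and 0.23 ± 0.19 with daily prednisone, none of them called. Scaling to total counts in place of the trimmed mean of M values (TMM) moved the median of all genes by 0.24 in the daily male and 0.20 in the daily female comparison, and with it Atp2a1 over both sexes went from 0.15 (adjusted p = 0.525, edgeR) to 0.36 (adjusted p = 0.0461).

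Daily was compared with weekly prednisone directly, without the vehicle libraries. By the methods of the study the last weekly injection came 2 days before sacrifice, whereas daily mice received prednisone every day. Regimen and time since the last dose cannot be told apart in this comparison. In males 0 members were called, with 0% of all genes called, and 2 members were separated (Atp2a1 higher and Mrln lower with daily prednisone), with 24.5% of all genes separated. In females 0 members were called, with 0% called, and Atp2a1 alone was separated, with 17.2%. At an unadjusted p under 0.05 there were 0 members in males and 2 in females (Atp2a1 and Atp2a2), with 1829 and 2400 of all 13596 genes at that p. DESeq2 called 0 and 2 members, with 197 and 540 of all genes called. With limma-voom 0 members were called in each, with 0 and 2 of all genes called. Atp2a1 had a log2 difference of 0.30 ± 0.19 in males and 0.71 ± 0.19 in females (adjusted p = 0.085, edgeR). In the female comparison libraries with the same replicate number in their titles deviated together, although the numbers in the sample names differ within each of these 3 pairs. With that number as a block 521 of all genes were called, Atp2a1 among them (0.71, adjusted p = 0.0313). With length and GC trends removed as well 88 were called, and Atp2a1 was not (0.82, adjusted p = 0.0688).

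Atp2a2 (ENSMUSG00000029467; chromosome 5, 122442702 to 122502225, minus strand) had 59.1, 64.5 and 73.4 CPM in vehicle males and 63.3, 46.6 and 68.3 CPM in vehicle females. With weekly prednisone it had 97.5, 81.6 and 139 CPM in males and 329, 83.6 and 73.9 CPM in females. With daily prednisone it had 84.8, 90.4 and 90.5 CPM in males and 46.7, 79.0 and 77.0 CPM in females. The weekly libraries lay above vehicle in both sexes, the daily males did so too, and the daily females overlapped vehicle. The daily log2 fold change was 0.43 in males (adjusted p = 0.587, edgeR) and 0.19 in females (adjusted p = 0.857, edgeR). Neither was called, and 1 of 14 alternatives other than leaving out 1 library called the daily male value. On the log2 scale weekly prednisone differed from vehicle by 0.69 ± 0.43 in males, with an adjusted p of 0.849 from edgeR. In females the difference was 1.45 ± 0.44, with an adjusted p of 0.309, and edgeR called neither. DESeq2 called Atp2a2 in weekly females (adjusted p = 0.045) and over both sexes (adjusted p = 0.0266). Without the 2 libraries of high Myh7 the weekly edgeR values in males and females were 0.45 and 0.39, and without female weekly replicate 1 alone the female value was 0.40. With the slow-fiber score as a covariate they were 0.13 and 0.63. The part of the slow-fiber RNA in the value was not tested beyond these fits. In bulk RNA a change in the number of fibers or cells of a type cannot be told apart from a change in RNA per cell.

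**Figure D3:**
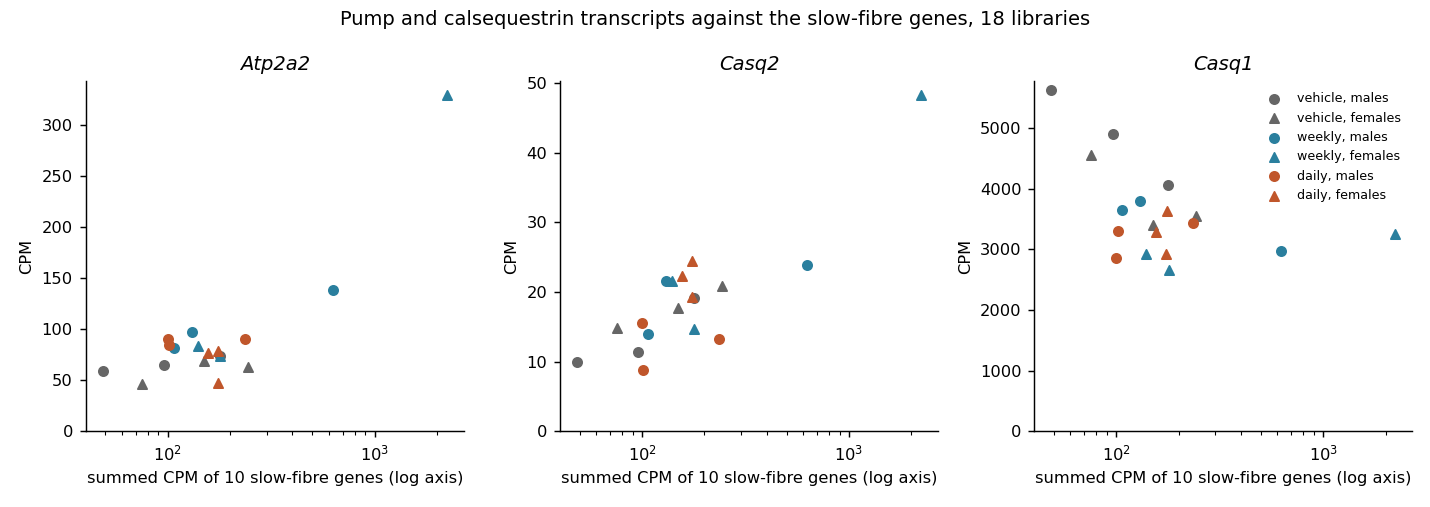
CPM of Atp2a2, Casq2 and Casq1 (y axes, linear from 0) against the summed CPM of 10 slow-fiber genes (x axis, log scale) in 18 libraries, with circles for males, triangles for females, gray for vehicle, blue for weekly and orange for daily prednisone. The 2 points at the right are female weekly replicate 1 (2225 CPM of slow-fiber genes) and male weekly replicate 3 (628 CPM), and Atp2a2 is highest in both.

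Among the micropeptides, Mrln (ENSMUSG00000019933) had 93.1, 65.3 and 69.2 CPM in vehicle males and 74.0, 108 and 49.0 CPM in vehicle females. Weekly prednisone gave 37.0, 43.2 and 38.8 CPM in males and 35.8, 45.2 and 38.7 CPM in females. Daily prednisone gave 32.2, 26.1 and 26.8 CPM in males and 38.5, 19.4 and 28.1 CPM in females. Every treated library of either sex lay below the lowest vehicle library, and the group means differed by less than 2 CPM between the sexes within each treatment. Mrln fell with daily prednisone from 75.9 ± 15.1 to 28.4 ± 3.36 CPM in males (log2 fold change -1.42 ± 0.26, adjusted p = 0.00856) and from 77.1 ± 29.7 to 28.7 ± 9.56 CPM in females (-1.43 ± 0.26, adjusted p = 0.043; SD over 3 libraries for CPM, SE for log2, edgeR). Over both sexes the log2 fold change was -1.42 ± 0.18 (adjusted p = 0.000507).

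With weekly prednisone Mrln averaged 39.7 ± 3.19 CPM in males and 39.9 ± 4.82 CPM in females (SD, n = 3), with log2 fold changes of -0.94 ± 0.26 (adjusted p = 0.849) and -0.95 ± 0.26 (adjusted p = 0.247, edgeR). It did not pass the threshold over both sexes either (-0.94 ± 0.18, adjusted p = 0.134, edgeR). Of 14 alternatives other than leaving out 1 library, only DESeq2 called it, in females (adjusted p = 0.0477) and over both sexes (adjusted p = 0.000311). Of 12 edgeR fits over both sexes that each left out 1 library, only 1 called it. That was the fit without female weekly replicate 2 (-1.001, adjusted p = 0.0187), and in the others the adjusted p reached 0.43. Between daily and weekly prednisone Mrln differed by -0.48 ± 0.26 in each sex and was not called.

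Leaving out each library in turn kept the daily call of Mrln in 5 of 6 fits in males, where it was lost without male vehicle replicate 1 (adjusted p = 0.054), and in 2 of 6 in females, where it was lost without either of daily replicates 2 and 3 or vehicle replicates 1 and 2. Over both sexes all 12 such fits kept it. Markers of fat moved with the daily regimen, with 7 of 10 adipocyte genes called higher over both sexes, beside 15% of all genes called. DESeq2 called 8 and limma-voom 4 of the 10, with 2267 and 1851 of all genes called. The 10 adipocyte genes summed to between 760 and 1479 CPM in vehicle, 1079 and 7016 with weekly and 1383 and 4541 with daily prednisone. With the adipocyte score as a covariate the daily log2 fold change of Mrln over both sexes was -1.31 (adjusted p = 0.0637, edgeR). That fit called 14 of all genes, against 2033 without the score. With the slow-fiber score the Mrln value was -1.34 (adjusted p = 0.00103, edgeR).

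**Figure D4:**
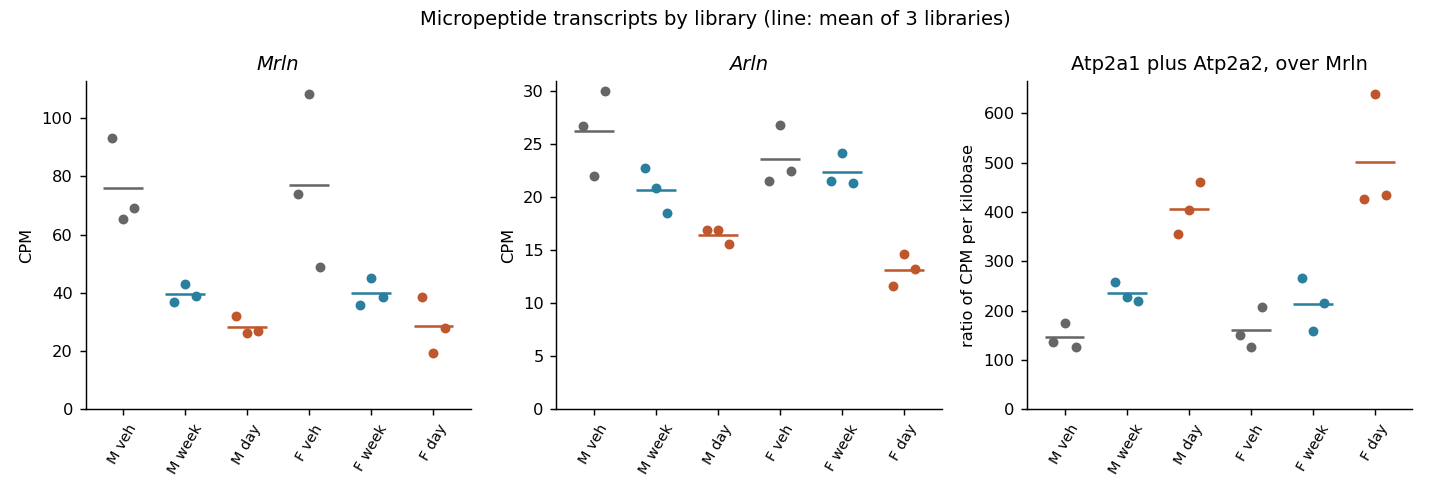
CPM of Mrln and Arln (left and middle, y axis in CPM from 0) and the ratio of the summed CPM per kilobase of Atp2a1 and Atp2a2 to that of Mrln (right), with 1 point per library, a line at the mean of 3 libraries, gray for vehicle, blue for weekly and orange for daily prednisone, in males (M) and females (F). The ratio lies between 127 and 208 in vehicle, 159 and 267 in weekly and 355 and 640 in daily libraries.

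Sln was near the limit of counting. Its counts were 5, 4 and 5 in vehicle males and 7, 0 and 5 in vehicle females. With weekly prednisone they were 20, 5 and 20 in males and 67, 4 and 3 in females, and with daily prednisone 11, 6 and 7 in males and 6, 17 and 11 in females. The 67 counts of female weekly replicate 1 were 4.49 CPM (exact Poisson 95% interval 3.48 to 5.70, counting error only), and the 0 of female vehicle replicate 2 allows up to 0.326 CPM at 3 counts. The high libraries were those with the most Myh7 and male weekly replicate 1, and the treated groups overlapped vehicle in both sexes. The log2 fold change with weekly prednisone was 1.43 ± 0.95 in males and 2.24 ± 0.94 in females, neither called, and without the 2 libraries of high Myh7 the female value turned to -0.29.

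Pln, the regulator of SERCA2 in heart, slow fibers and smooth muscle, had between 13 and 108 counts. It had 1.14, 3.33 and 4.06 CPM in vehicle males and 2.45, 4.13 and 4.47 CPM in vehicle females. With weekly prednisone it had 4.31, 3.84 and 5.01 CPM in males and 2.74, 6.31 and 3.39 CPM in females, and with daily prednisone 2.92, 6.78 and 2.45 CPM in males and 1.69, 4.90 and 3.14 CPM in females. All groups overlapped vehicle, and the log2 fold changes ran from -0.17 ± 0.49 (daily, females) to 0.64 ± 0.50 (weekly, males). The 8 smooth muscle genes summed to 1063 CPM in male daily replicate 2 and 1044 CPM in female weekly replicate 2, the libraries with the most Pln. They summed to 504 CPM in male vehicle replicate 1, which had the least Pln. Their sum was lowest in female weekly replicate 1 (337 CPM) and female daily replicate 1 (440 CPM), where Pln had 2.74 and 1.69 CPM. With the smooth muscle score as a covariate the daily male value of Pln went from 0.54 to -0.06. The part of the smooth muscle RNA in the Pln values was not tested beyond this fit. Pln overlaps Cep85l on the other strand, which held 1838 counts over all libraries against 842 of Pln, and as the strand setting of the counting is not given in the sources used here, reads of the 2 genes may not be told apart.

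Of the calsequestrins, Casq1 (ENSMUSG00000007122; chromosome 1, 172209894 to 172219868, minus strand) had 5629, 4906 and 4054 CPM in vehicle males and 3552, 4553 and 3407 CPM in vehicle females. Weekly prednisone gave 3790, 3648 and 2980 CPM in males and 3253, 2918 and 2652 CPM in females. Daily prednisone gave 3297, 2865 and 3435 CPM in males and 3637, 2928 and 3289 CPM in females. The weekly libraries lay below vehicle in both sexes and the daily libraries did so in males, whereas daily and vehicle females overlapped. Casq1 fell by 0.60 ± 0.18 on the log2 scale with daily prednisone in males (adjusted p = 0.0492), and by 0.41 ± 0.12 over both sexes (adjusted p = 0.0326, edgeR). It was -0.22 ± 0.17 in females (adjusted p = 0.543), and the sex difference of 0.38 ± 0.25 was not called (adjusted p = 0.889). With weekly prednisone the values were -0.49 ± 0.17 in males and -0.38 ± 0.17 in females, neither called by edgeR. DESeq2 called Casq1 over both sexes with weekly prednisone (adjusted p = 0.0196), with 180 of all genes called.

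The male call of Casq1 stood close to the threshold. None of 6 fits without a library kept it, and their adjusted p lay between 0.0541 and 0.216. Scaling to total counts gave -0.37 (adjusted p = 0.133), and removing length and GC trends gave -0.58 (adjusted p = 0.158). Over both sexes the call held in 4 of 12 such fits, those without female daily replicate 1, female vehicle replicates 1 and 3 or male vehicle replicate 3, and the adjusted p reached 0.0889 in the other 8. Of 14 further alternatives 8 kept the call over both sexes, and scaling to total counts lost it. The 10 fast-fiber genes had a median of -0.62 on the log2 scale for daily males, where the median over all genes was 0.05. Of the 10, 3 were called lower, beside 6.47% of all genes called.

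Casq2 (ENSMUSG00000027861; chromosome 3, 102086415 to 102146514, plus strand) had 9.91, 11.4 and 19.1 CPM in vehicle males and 20.8, 14.8 and 17.7 CPM in vehicle females. Weekly prednisone gave 21.6, 14.01 and 23.9 CPM in males and 48.3, 21.6 and 14.7 CPM in females, and daily prednisone 8.75, 15.5 and 13.3 CPM in males and 19.3, 24.4 and 22.3 CPM in females. The treated groups overlapped vehicle in both sexes. The log2 fold change was 0.56 ± 0.37 in males and 0.67 ± 0.37 in females with weekly prednisone and -0.10 ± 0.37 and 0.31 ± 0.37 with daily prednisone, none called. The high weekly female value came from replicate 1, the library with the slow-fiber sum of 2225 CPM. Without it the female value was 0.023, and without both libraries of high Myh7 the values were 0.41 in males and 0.013 in females. With the slow-fiber score as a covariate they were 0.17 and 0.11.

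Ratios within a library set the members against each other without a scaling factor. The summed CPM per kilobase of Atp2a1 and Atp2a2 over that of Mrln had a median of 143 in the 6 vehicle, 224 in the weekly and 431 in the daily libraries. The exon length used was 4.35 times the coding transcript for Mrln and 1.29 times for Atp2a1. The ratio is therefore no count of transcripts, and it is overstated if coding transcripts supply most reads. All 6 daily libraries lay above all others, and weekly and vehicle libraries overlapped in females. Atp2a1 over Casq1 ran from 3.73 to 5.40 in vehicle, 4.25 to 5.42 in weekly and 5.99 to 7.81 in daily libraries, with the daily libraries again above the rest. The share of Atp2a2 among the pumps was between 0.130% and 0.537% in weekly libraries, the highest being female weekly replicate 1 with its slow-fiber sum of 2225 CPM, and reached 0.131% in vehicle, and in daily libraries it was between 0.0444% and 0.134%. These ratios follow from the values that chose the members and carry no test.

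The sexes were compared among vehicle mice, where 0 members were called, with 0.765% of all genes called, and 0 were separated, with 18.9% of all genes separated. At an unadjusted p under 0.05 there were also 0 members, beside 1418 of all 13596 genes. DESeq2 and limma-voom called 0 members, with 225 and 93 of all genes called. The log2 difference, female minus male, was 0.02 ± 0.25 for Mrln (95% interval -0.47 to 0.52), 0.09 ± 0.19 for Atp2a1 and -0.34 ± 0.17 for Casq1 (adjusted p = 0.517). Neither the daily nor the weekly response differed between the sexes for any member at the threshold, with 0 members and 0% of all genes called in each. At an unadjusted p below 0.05 there were 0 members, beside 637 (daily) and 357 (weekly) of all 13596 genes. DESeq2 called 0 members, with 2 and 0 of all genes called, and limma-voom called 0 members and 0 of all genes in each. For Mrln the sex difference was -0.01 ± 0.36 in both regimens (95% interval -0.71 to 0.70 with daily and -0.72 to 0.69 with weekly prednisone).

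The genes most like a member over the 18 libraries were taken by Pearson's r of log2 CPM, as a description over libraries that share groups and depth. For Mrln these were Park7 (0.932), which encodes a protein of the oxidative stress response, Tnnc2 (0.932), the fast troponin C, and Pvalb (0.920), the calcium buffer of fast fibers. Cd63 (0.919), a tetraspanin of endosomes, and Rtn2 (0.916), a reticulon of the reticulum, followed. For Atp2a2 they were the slow-fiber genes Tnnc1 (0.897), Tnni1 (0.859), Tpm3 (0.853), Myh7 (0.842) and Tnnt1 (0.838). Without the 2 libraries of high Myh7 the Atp2a2 values dropped to between 0.485 and 0.709, while those of Mrln lay between 0.920 and 0.958.

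Other regulators of the pumps were read from a list of 17 genes, of which 15 were tested. Over both sexes daily prednisone called 2 higher and 1 lower, in a comparison that called 15% of all genes, with a list median of -0.03 against 0.02 over all genes. The gene that fell was Arln (annotated as 1810037I17Rik), which encodes another micropeptide that binds SERCA. It had 26.7, 22.0 and 30.1 CPM in vehicle males and 21.6, 26.8 and 22.5 CPM in vehicle females, against 16.9, 16.9 and 15.7 CPM and 11.7, 14.7 and 13.2 CPM with daily prednisone. The daily libraries lay below all vehicle libraries, and Arln fell by 0.75 ± 0.10 on the log2 scale (adjusted p = 0.000507), and was called in each sex alone. The male value was -0.67 ± 0.14 (adjusted p = 0.013, edgeR) and the female value -0.84 ± 0.14, with an adjusted p of 0.043. With weekly prednisone it was -0.34 ± 0.14 in males and -0.08 ± 0.14 in females, not called. Ppp1r3a, which targets protein phosphatase 1 to glycogen and the reticulum, rose by 0.64 ± 0.18 (adjusted p = 0.0268), a call lost without any of female daily replicate 3, female vehicle replicate 2, male daily replicate 3 or male vehicle replicate 3, and with length and GC trends removed (0.38, adjusted p = 0.168). The micropeptide genes Strit1 and Erln did not pass the filter.

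Of 20 genes of calcium release and the store, all tested, daily prednisone over both sexes called 2 higher and 4 lower, beside 15% of all genes, with a median of -0.03. The furthest were Jsrp1 (-0.64 ± 0.14, adjusted p = 0.00682), which encodes a protein of the junctional membrane, and Cacng1 (-0.61 ± 0.13, adjusted p = 0.00444), the gamma subunit of the muscle calcium channel. With length and GC trends removed neither passed, at -0.56 (adjusted p = 0.0534, edgeR) for Jsrp1 and -0.40 (adjusted p = 0.0708) for Cacng1. Of 17 genes of calcium buffering and membrane transport it called 2 higher and 2 lower, beside the same 15%, with a median of -0.09. Pvalb fell by 0.92 ± 0.14 (adjusted p = 0.00109), from between 13058 and 21915 CPM in vehicle to between 8360 and 10711 CPM in daily libraries, which did not overlap. Smdt1, a subunit of the mitochondrial calcium uniporter, fell by 0.73 ± 0.11 (adjusted p = 0.00109, edgeR). With weekly prednisone over both sexes edgeR called 0 genes of the 3 lists, which had 3, 5 and 2 genes at an unadjusted p below 0.05, beside 1492 of all 13596 genes. DESeq2 called 0, 1 and 1 of them, with 180 of all genes called, and limma-voom 0 in each, with 0 of all genes called. With the adipocyte score as a covariate none of the 6 named genes of these lists passed, with an adjusted p between 0.0645 for Arln and 0.693 for Ppp1r3a (edgeR). That fit called 14 of all genes, against 2033 without the score. The log2 fold changes in that fit were -0.67 for Arln, -0.71 for Smdt1, -0.82 for Pvalb, -0.47 for Jsrp1, -0.48 for Cacng1 and 0.23 for Ppp1r3a, and the part of the fat RNA in these values was not tested beyond it. The lists were written with earlier results of these data known. Of the fast-fiber genes 6 of 10 were called lower with daily prednisone over both sexes, beside 15% of all genes called.

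Near-identical sequence can split reads between paralogs. The coding sequences of Atp2a1 and Atp2a2 were identical at 75.3% of aligned bases, and those of Casq1 and Casq2 at 69.5%. The longest stretch shared between any of their annotated transcripts, untranslated parts included, was 44 bases for the pumps and 25 bases for the calsequestrins. Atp2a1 overlaps Rabep2, Atp2a2 overlaps Anapc7 and Casq1 overlaps Gm17224 on the other strand, with 14284, 3270 and 433 counts against 5699541, 21404 and 789389 of the member. Reads of an overlap cannot be assigned without the strand setting.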

How the data were processed

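The deposited table holds whole-number read counts per gene for 18 libraries, which the authors made by aligning reads to mm10 and counting them with HTSeq. The submitters' processing notes also name TopHat2 2.1.0, Bowtie2 2.2.6 and mm9, with no role given. The strand setting and the annotation release are not given in the sources used here. The counts carry no normalization, and gene starts, ends and exon lengths in bases come from the same table. Of 43430 identifiers, 42462 were matched to a symbol. All columns of per-library values were used, so 0 were set aside.

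The count test was edgeR 4.0.16 in R 4.3.3 (filterByExpr with a minimum count of 10, TMM factors, robust quasi-likelihood fit of 6 group means over 18 libraries). Two-sided p values received a Benjamini-Hochberg adjustment over 13596 genes and were called under 0.05. The standard error of a log2 fold change is its size divided by the square root of F. CPM is the count per 1000000 counts of the TMM-scaled library, and CPM per kilobase divides it by the exon length of the table. Total counts ranged from 10506661 to 14686654, and intervals on counts cover counting error alone. The smallest chi-square per degree of freedom between libraries of a group was 13.1, so no library was a copy. The fit was first tested on simulated counts with known changes.

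The members and the gene lists were chosen with earlier results of these data known. Named genes are the members, the 5 genes most correlated with Mrln and with Atp2a2 (log2 CPM, prior count 2), the 2 called genes of largest change over both sexes with daily prednisone in each calcium list, and Myh7. List scores are the mean log2 CPM of a list in a library. Alternatives were DESeq2 1.42.0, its size factors, limma-voom (limma 3.58.1), other filters on low counts, a fit with only the compared groups, replicate numbers as a block, slow-fiber and adipocyte scores as covariates, length and GC trends removed, and each library left out. The smooth muscle score, total counts, the fit without the 2 libraries of highest Myh7 and the block within the female weekly and daily libraries were added after seeing the data.

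Replicate numbers come from the sample titles, and nothing in the labels says that a number marks a shared litter or day. For several libraries the sample name carries another number than the title. Deviations of same-numbered libraries correlated at 0.50, 0.48 and 0.44 between daily and weekly females, where the number was taken to pair libraries, and not in all 3 pairs of any other comparison. Coding sequences were read from GENCODE M21 transcripts and aligned with Biopython, and promoters from RefSeq (GRCm38.p6).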

Additional observations from a re-analysis of the deposited data

How the results depend on the processing

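Alternatives moved the number of members called more than their direction. Against 2 called in daily males, no filter on low counts, the slow-fiber score, length and GC trends removed (with or without the block) and total counts each left 1, and the adipocyte score left 0. Against 1 in daily females, a fit with only the compared groups, replicate numbers as a block, the slow-fiber and adipocyte scores and length and GC trends removed (with or without the block) each left 0. Against 2 over both sexes with daily prednisone, no filter, the slow-fiber score and length and GC trends removed (with or without the block) left 1 and the adipocyte score 0. Total counts kept 2 there, with Atp2a1 called in place of Casq1. Against 0, DESeq2 called 2 in weekly females, 3 over both sexes with weekly prednisone and 2 between daily and weekly females. In the last comparison 1 was called without the 2 libraries of highest Myh7, with the smooth muscle score, and with the block within these libraries. Where the number does not pair libraries, the block changed no call of a member but that of Mrln in daily females (adjusted p = 0.0511), where calls among all genes went from 52 to 8. Leaving out each library gave 0 to 1 members in daily males, 0 to 1 in daily females, 1 to 2 over both sexes with daily and 0 to 1 with weekly prednisone. Among all genes the alternatives that kept every library called between 52 and 1530 in daily males (879 in the fit reported), 0 and 1054 in daily females (52) and 14 and 3482 over both sexes (2033), the lowest with the adipocyte score. Up to 6 were called in weekly males, 149 in weekly females, 180 over both sexes with weekly prednisone, 938 and 1432 between daily and weekly males and females, 2 for the daily sex difference and 225 between vehicle sexes (104). The cause was not tested.

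The values below turned sign, among them Sln from 2.24 in weekly females, -1.25 between daily and weekly females and 0.82 as the weekly difference between the sexes. The list is not complete. In alternatives other than leaving out 1 library, Atp2a2 in daily females went from 0.19 to as low as -0.21. Atp2a2 between daily and weekly males went from -0.26 to as high as 0.15, and Casq2 in daily males from -0.10 to as high as 0.15. The cause was not tested. With the smooth muscle score Pln was -0.063 in daily males, 0.026 as the daily and 0.29 as the weekly difference between the sexes, and Sln was -0.76 as the last. With the adipocyte score Pln was 0.33 in daily females and Atp2a2 -0.028 over both sexes with daily prednisone. With the slow-fiber score Sln was 0.062 and Casq2 0.028 between daily and weekly females. Without the 2 libraries of highest Myh7 Sln was -0.29 in weekly females, 1.29 between daily and weekly females and -1.61 as the weekly difference between the sexes, Casq2 was 0.30 between daily and weekly females, and Atp2a2 -0.062 as that difference. Leaving out each library, Pln ran from -0.064 to 0.92 in daily males, Sln from -0.28 to 2.81 in weekly females and from -1.76 to 1.27 between daily and weekly females, and Casq2 there from -0.67 to 0.28. As the weekly difference between the sexes Atp2a2 ran from -0.29 to 1.11, Sln from -1.70 to 1.39 and Casq2 from -0.54 to 0.41. Mrln ran from -0.29 to 0.26 between vehicle females and males. Against vehicle Mrln stayed below 0 under all alternatives in both sexes and both regimens. Sln and Pln had at most 67 and 108 counts in a library, which limits their precision.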
